A study of Nothobranchius furzeri with 8 samples.

Results

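The gene shmt1 (Nfu_g_1_019840) encodes the cytosolic serine hydroxymethyltransferase, and it is 1 of 23546 genes counted in the brain of the turquoise killifish Nothobranchius furzeri. It was chosen by its difference in count between sponge-29 and wild-type brain in these same libraries, so its levels are given here as a description and without a test. The symbol is that of the zebrafish ortholog with which the study pairs the identifier. RNA was sequenced from the brain of 4 wild-type fish of the MZM-04/10p strain and 4 sponge-29 fish (kif5a::miR-29sponge) on the same MZM-04/10 background, all at 12 weeks of age. The sponge-29 fish are F1 transgenics in which a zebrafish kif5aa promoter fragment, active in neurons, drives eGFP followed by repeated binding sites for the microRNA miR-29, so that miR-29 is sequestered, and the line goes back to more than 1 founder. The labels name no other treatment and give neither the sex, litter or batch of the fish nor the founder of each transgenic fish. The transgene and the microRNA were not measured in the counts used here, so the groups rest on the labels. Each library is counted as 1 fish, and p-values set the difference between the groups against the spread among the libraries within them. They take the fish of a group as independent, which the labels do not show.

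Serine hydroxymethyltransferase uses pyridoxal phosphate to move a carbon unit from serine to tetrahydrofolate, which yields glycine and methylenetetrahydrofolate. The carbon unit serves the synthesis of thymidylate and purines and, after reduction to methyltetrahydrofolate, the methylation of homocysteine to methionine, from which the methyl donor S-adenosylmethionine is made. Cells hold a cytosolic enzyme, encoded by shmt1, and a mitochondrial enzyme, encoded by shmt2. In mammals the cytosolic enzyme also enters the nucleus during DNA replication, where thymidylate is made. In RefSeq's table of the killifish assembly NfurGRZ-RIMD1 shmt1 lies between cpsf4 and pdap1b. That assembly is not the one behind the counts, so no coordinates are given.

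The libraries held between 18014090 and 24902251 reads counted on genes, and the range of the wild-type fish (from 21665735) lay above that of the sponge-29 fish (up to 21081878), so levels are given as counts scaled to library size (CPM, with TMM factors from 0.979 to 1.02). Neuronal markers were present in every fish, as the summed level of 6 of them (snap25a, elavl2, stmn2a, uchl1, nefl and sncga) was between 680 and 1152 CPM. After genes with few reads were set aside 19536 remained, shmt1 among them. With edgeR (quasi-likelihood, Benjamini-Hochberg adjustment, threshold 0.05) 2341 of them (12.0%) passed, of which 1201 (6.15%) were higher and 1140 (5.84%) lower in sponge-29. The values of all 4 fish of one group lay above those of the other for 4273 genes (21.9%), with sponge-29 lower for 10.5% and higher for 11.4%. The count of genes that passed was below 2341 by more than 1.5 times without wild-type fish 1 (1153), 3 (886) or 4 (427) or without sponge-29 fish 1 (1480), 2 (441) or 4 (990).

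In wild-type brain shmt1 had 13.5 CPM in fish 1, 15.3 in fish 2, 13.5 in fish 3 and 14.04 in fish 4. In sponge-29 brain it had 0.970 CPM in fish 1, 2.06 in fish 2, 1.72 in fish 3 and 2.89 in fish 4. All sponge-29 fish lay far below all wild-type fish, with the lowest wild-type fish 4.65-fold above the highest sponge-29 fish. The group means were 14.1 ± 0.845 CPM in wild-type and 1.91 ± 0.798 CPM in sponge-29 (SD, n = 4), so that sponge-29 brain held 13.6% of the wild-type level. The log2 fold change of the fit over all genes was -2.89 (standard error 0.27). In whole brain, fewer cells that express a gene and less of its RNA per cell cannot be told apart.

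These levels rest on 298, 367, 338 and 329 reads in wild-type fish 1 to 4 and on 20, 40, 34 and 51 reads in sponge-29 fish 1 to 4. The gene was thus detected in every sponge-29 fish, above the 3 counts taken as the floor of detection. Scaled to gene length (3247 bases by the ratio of counts to RPKM), the level was 4.38 ± 0.274 RPKM in wild-type and 0.581 ± 0.240 RPKM in sponge-29 (SD, n = 4). Between 36.0% and 37.4% of the genes tested had a lower RPKM than shmt1 in the same wild-type fish, and between 4.03% and 11.7% in the same sponge-29 fish. The gene therefore stood below the middle of the expressed genes in wild-type brain and near the bottom in sponge-29 brain.

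**Figure D1:**
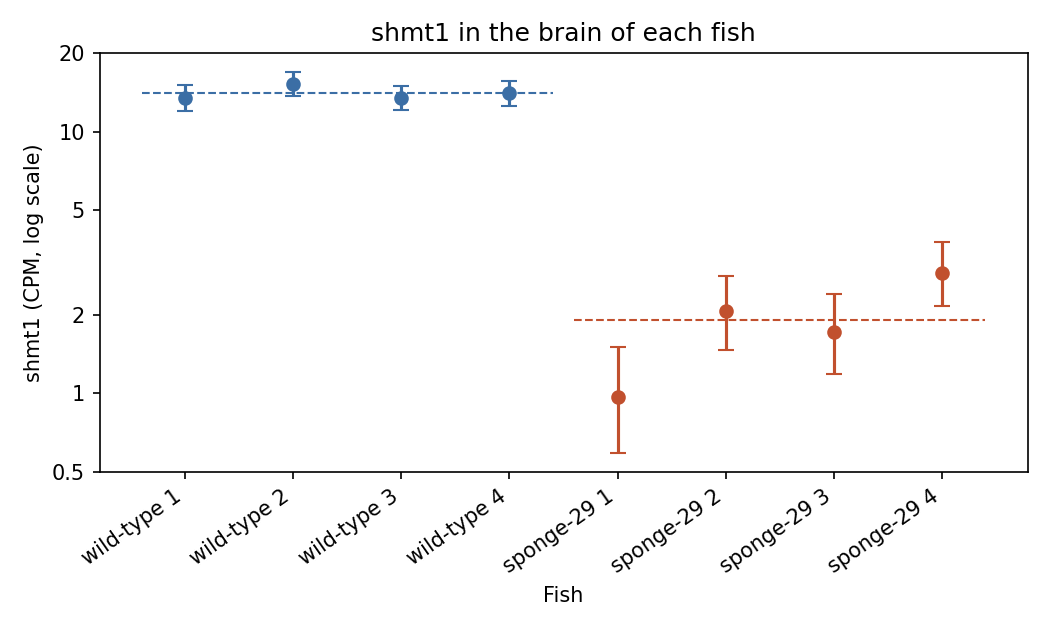
The level of shmt1 in CPM (log scale) in each of the 4 wild-type and 4 sponge-29 fish, with the exact 95% Poisson interval of its read count as bars and the group mean as a dashed line. The wild-type fish sit between 13.5 and 15.3 CPM and the sponge-29 fish between 0.970 and 2.89 CPM.

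The SD between fish was close in both groups on the CPM scale (0.845 in wild-type and 0.798 in sponge-29), while the mean was lower in sponge-29, so the spread relative to the mean was larger there. In wild-type the coefficient of variation was 6.003%, where counting error alone gives 5.48%, so the SD was 1.09 times the counting SD. The exact 95% Poisson intervals of the wild-type fish all overlapped, from 12.0 to 15.1 CPM in fish 1 and from 13.7 to 16.9 CPM in fish 2. In sponge-29 the coefficient of variation was 41.8% against 16.6% from counting error, and the SD was 2.51 times the counting SD. Sponge-29 fish 1 (interval from 0.592 to 1.497 CPM) and fish 4 (from 2.15 to 3.80 CPM) did not overlap, a 2.98-fold range within the group. These intervals cover counting error only. Fish 1 had the most counted reads of its group (21081878) and fish 4 the fewest (18014090), and the part of library size in this spread was not tested.

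Set beside genes of a like wild-type level, shmt1 stood at the edge, which its choice by its difference in these libraries largely sets. A wild-type mean between 11.3 and 17.6 CPM was found for 1941 other genes, whose log2 fold changes had a median of 0.02, a 5th percentile of -0.61 and a 95th percentile of 0.47. Of them, 38 had a log2 fold change below -1, 12 below -2, and 5 at or below that of shmt1. The median coefficient of variation of these genes was 11.1% in wild-type, and 272 of them varied less than shmt1 there. Over all 19536 genes, 65 had a log2 fold change below -2. Of those 65, 14 passed the threshold and 12 had groups that did not overlap. In the same ranking, which does not weigh the spread between fish, shmt1 had the 13th lowest log2 fold change and the 30th largest in absolute size. Among the 1418 identifiers with a symbol it had the lowest and the largest in absolute size, but symbols came from lists that the study chose on these libraries. The symbol of shmt1 came from a list of genes sorted by their direction in sponge-29 and with age. The paper describes that list as drawn from genes it found changed both in sponge-29 and with age. The identifier of shmt1 was nonetheless not found in the study's list of genes changed in sponge-29 as used here, and the reason is not known.

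**Figure D2:**
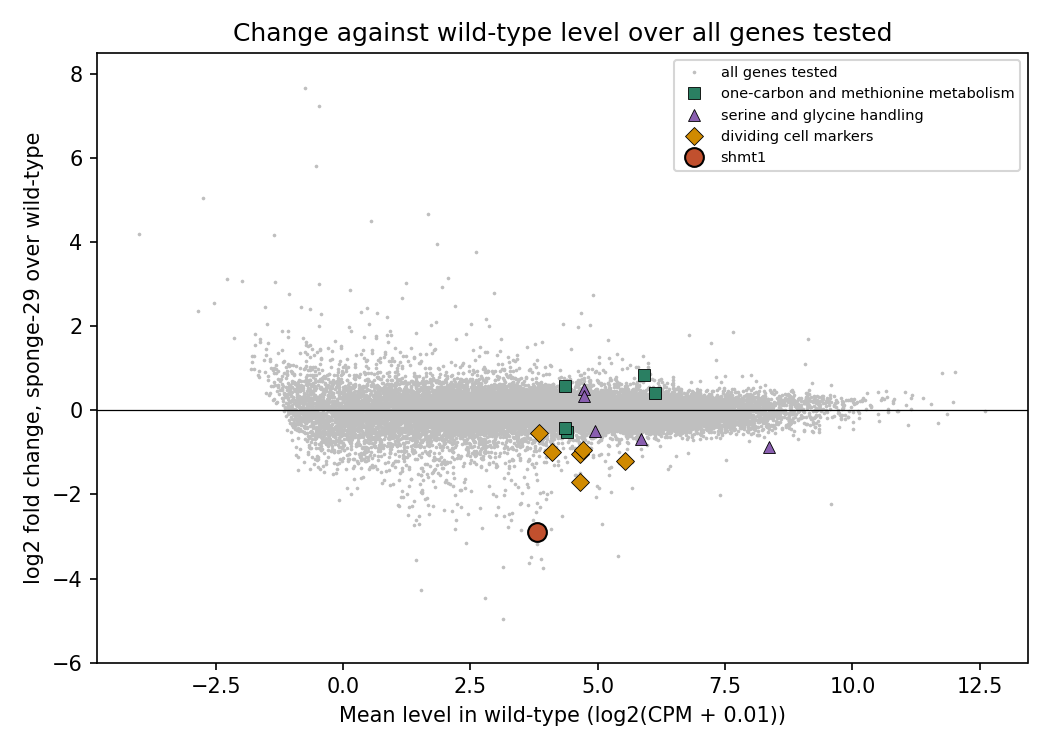
The log2 fold change of sponge-29 over wild-type against the mean wild-type level for all 19536 genes tested (grey), with shmt1, the one-carbon and methionine genes, the serine and glycine genes and the dividing cell markers as larger symbols. The point of shmt1 lies at -2.89, below all members of the 3 lists.

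The folate and methionine side of the pathway was followed through 5 genes with an identifier. A symbol was at hand only for genes in lists that the study had picked by their change in these libraries, so whether such a gene was called, and its direction, cannot be read as independent evidence about a pathway. Of the 5 genes, 2 rose, 1 fell and 2 did not pass the threshold, with a median log2 fold change of 0.41 against -0.01 over all genes tested, and 12.0% of all genes passed. The gene MTR (Nfu_g_1_017428) encodes the cobalamin-dependent methionine synthase, which takes the methyl group of methyltetrahydrofolate to homocysteine. It had 21.9, 19.6, 18.4 and 24.3 CPM in wild-type fish 1 to 4 and 15.6, 12.2, 17.3 and 13.4 CPM in sponge-29 fish 1 to 4. The groups did not overlap, but sponge-29 fish 3 came close to wild-type fish 3. MTR fell by 0.52 on the log2 scale (standard error 0.13, adjusted p = 0.0382, edgeR). Scaled to length, MTR and shmt1 were close in wild-type (4.10 and 4.38 RPKM, means of 4 fish) and apart in sponge-29 (2.79 and 0.581 RPKM).

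Homocysteine is also methylated by the betaine-homocysteine methyltransferase, the product of bhmt (Nfu_g_1_006531), which does not use folate. It had 58.4, 44.04, 53.0 and 85.2 CPM in wild-type fish 1 to 4 and 131, 88.5, 137 and 76.8 CPM in sponge-29 fish 1 to 4. The groups overlapped, since sponge-29 fish 4 lay below wild-type fish 4. The log2 fold change of bhmt was 0.85 (standard error 0.24), and edgeR gave an adjusted p of 0.0509, above the threshold, and its sign was opposite to that of MTR. The gene mri1, whose product isomerises methylthioribose phosphate in the salvage of methionine, had 20.5 ± 1.96 CPM in wild-type and 15.2 ± 2.51 CPM in sponge-29 (SD, n = 4). Its log2 fold change of -0.43 (standard error 0.13) had an adjusted p of 0.0618 (edgeR), although the groups did not overlap.

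Cobalamin, the cofactor of methionine synthase, leaves the lysosome by way of the membrane proteins encoded by lmbrd1 and ABCD4. Both rose, lmbrd1 from 69.4 ± 3.61 to 92.5 ± 6.89 CPM and ABCD4 from 20.6 ± 3.20 to 30.6 ± 3.18 CPM (SD, n = 4). The log2 fold change of lmbrd1 was 0.41 (standard error 0.07, adjusted p = 0.0140, edgeR). That of ABCD4 was 0.57 (standard error 0.12, adjusted p = 0.0253, edgeR). With 1 fish left out in turn, lmbrd1 was called in 7 of 8 fits, all but the fit without wild-type fish 4 (adjusted p = 0.0513, edgeR). MTR and ABCD4 were called in 2 of 8, those without wild-type fish 2 and without sponge-29 fish 3. MTR was also not called after correction for gene length (adjusted p = 0.0603, edgeR). Its adjusted p rose to as much as 0.1045 without wild-type fish 4 and that of ABCD4 to 0.0759 without sponge-29 fish 2 (edgeR).

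Serine and glycine, the substrate and product of the enzyme, are also handled by the 5 genes slc38a2, slc38a4, sptlc2, slc25a38b and GLYCTK. Of these 3 fell, 1 rose and 1 did not pass the threshold, where 12.0% of all genes tested passed. Their symbols came from the same lists of changed genes, which largely sets this count. The median log2 fold change of the list was -0.49. The gene slc38a2 encodes a sodium-coupled carrier of small neutral amino acids, serine and glycine among them. It had 279, 283, 368 and 389 CPM in wild-type fish 1 to 4 and 163, 213, 190 and 158 CPM in sponge-29 fish 1 to 4. The groups were well apart, and slc38a2 fell by 0.86 on the log2 scale (standard error 0.14, adjusted p = 0.0120, edgeR). It was called in all 8 fits that left out 1 fish. The related carrier gene slc38a4 fell from 57.7 ± 8.55 to 35.8 ± 4.78 CPM (SD, n = 4), a change of -0.69 ± 0.13 (log2, standard error) with an adjusted p of 0.0167 by edgeR, and was not called without sponge-29 fish 2 (adjusted p = 0.0567, edgeR).

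The gene sptlc2 encodes a subunit of serine palmitoyltransferase, which joins serine to a fatty acid in the first step of sphingolipid synthesis. It fell from 30.6 ± 3.75 to 21.8 ± 1.05 CPM (SD, n = 4), a change of -0.49 ± 0.10 (log2, standard error) with an adjusted p of 0.0189 by edgeR. Without wild-type fish 4 or sponge-29 fish 2 its adjusted p was 0.0627 and 0.0624 (edgeR). The gene GLYCTK, for glycerate kinase, which acts on a breakdown product of serine, rose from 26.6 ± 0.434 to 33.9 ± 3.16 CPM (SD, n = 4), a change of 0.35 ± 0.08 (log2, standard error) with an adjusted p of 0.0253 by edgeR. It was called in 3 of 8 fits with 1 fish left out, with an adjusted p of up to 0.0778 without wild-type fish 4 (edgeR). The mitochondrial glycine carrier gene slc25a38b had 26.5 ± 1.96 CPM in wild-type and 37.6 ± 8.19 CPM in sponge-29 (SD, n = 4), a change of 0.51 ± 0.14 (log2, standard error) with an adjusted p of 0.0520 by edgeR.

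**Figure D3:**
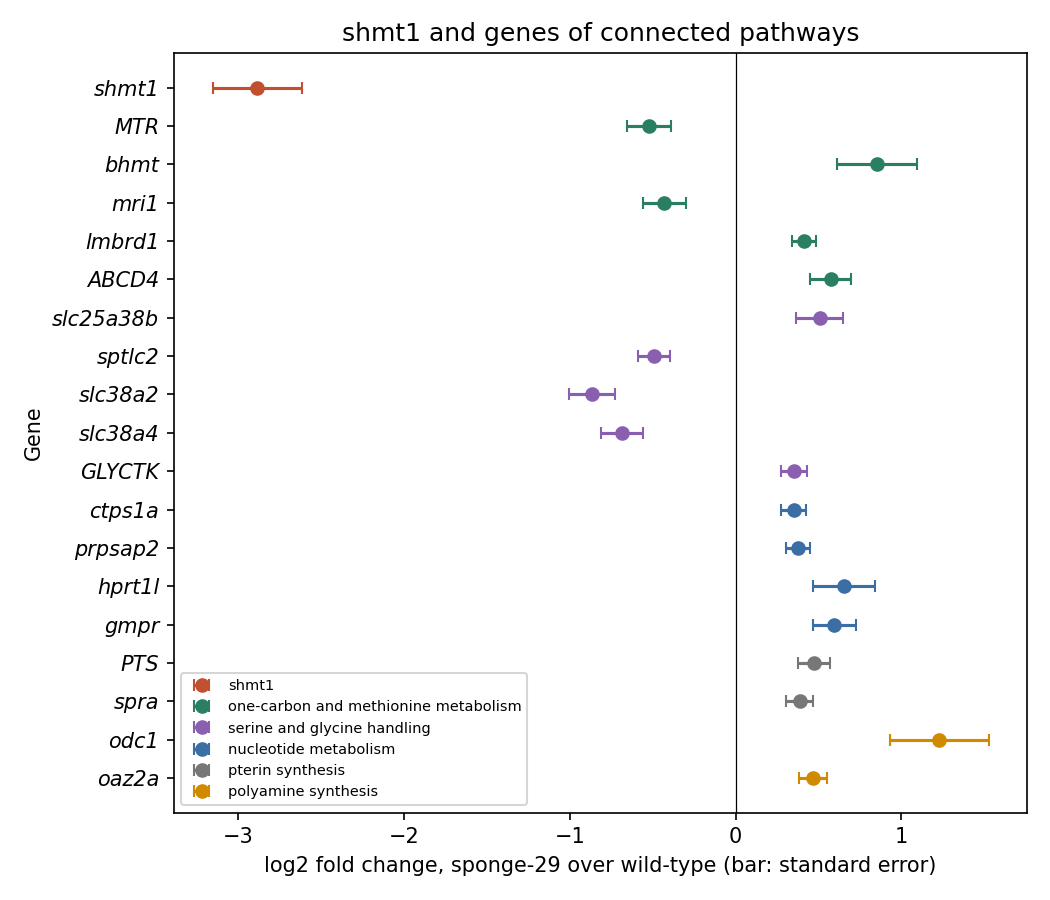
The log2 fold change of sponge-29 over wild-type for shmt1 and 18 genes of connected pathways, with the standard error of the fit as bars and the lists in colours. The value of shmt1 is -2.89, and the other 18 lie between -0.86 (slc38a2) and 1.23 (odc1).

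Genes of nucleotide, pterin and polyamine metabolism and of methyltransferases were read from the same fit, where 12.0% of all genes tested passed the threshold. Their symbols too came from the study's lists of changed genes, which largely sets the counts below. Of 4 genes of nucleotide metabolism, 3 rose and 1 did not pass the threshold, with a median log2 fold change of 0.49. They were gmpr (GMP reductase, log2 fold change 0.60), prpsap2 (a protein bound to phosphoribosyl pyrophosphate synthetase, 0.38) and ctps1a (CTP synthase, 0.35), while hprt1l, of the purine salvage family, had 0.65 and an adjusted p of 0.0508 by edgeR. Both genes of tetrahydrobiopterin synthesis, PTS (0.47) and spra (0.39), rose, and so did both genes of the polyamine pathway, odc1 (ornithine decarboxylase, 1.23) and oaz2a (an antizyme, 0.47). These pterin and polyamine genes had a median log2 fold change of 0.43 and 0.85 in the order given. The level of odc1 was 175 CPM in sponge-29 fish 1, against 72.3 to 88.8 CPM in the others of its group and 29.7 to 52.6 CPM in wild-type. Of 25 identifiers of methyltransferases, which take the methyl group from S-adenosylmethionine, 14 fell, 9 rose and 2 did not pass the threshold. Their median log2 fold change was -0.44. The 25 identifiers carry 22 symbols, as mll3b and mll4b are present under several identifiers, all of which fell. The largest fall was that of ezh2, a histone methyltransferase, at -0.86 (standard error 0.13), and the largest rise that of lcmt2, a methyltransferase of transfer RNA, at 0.72 (standard error 0.06).

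Over these 6 lists of connected pathways 37 of 43 identifiers passed the threshold, 19 higher and 18 lower, against 12.0% of all genes tested. Each identifier of mll3b and mll4b was counted. The study's choice of genes on these libraries largely sets the share that passed in these lists. The count was 13 without wild-type fish 4, 15 without sponge-29 fish 2 and 20 without wild-type fish 3. Over the 8 fits that left out 1 fish, shmt1 had log2 fold changes between -3.15 (without sponge-29 fish 4) and -2.67 (without sponge-29 fish 1).

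The genes whose pattern over the 8 fish was most like that of shmt1 were ranked by the root mean square difference of log2 CPM, each gene being set to its mean in wild-type. This measure uses the difference between the groups that is known for shmt1, and the value of each fish within its group. The resemblance, also in the order of the fish, is therefore a description. Over 19535 genes its median was 2.11, and 18 genes lay within 1. The nearest gene was Nfu_g_1_021098 (difference 0.29 on the log2 scale, Pearson's r = 0.98 over 8 fish), which has no symbol here. It had 28.0, 25.4, 42.8 and 39.8 CPM in wild-type fish 1 to 4 and 2.28, 5.09, 4.75 and 8.68 CPM in sponge-29 fish 1 to 4. The order of the sponge-29 fish was that of shmt1, with fish 1 lowest, then fish 3, fish 2 and fish 4. This order was found for 8.33% of all other genes tested. In wild-type, Nfu_g_1_021098 was lowest in fish 2 and highest in fish 3, while shmt1 was highest in fish 2 (15.3 CPM) and lowest in fish 3 (13.46 CPM). A Pearson's r above 0.9 with shmt1 over the 8 fish was found for 291 genes.

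Among genes with a symbol the nearest 5 were neb, tpx2, BX640461.1, aspm and tacc3, at differences from 0.76 (neb) to 1.00 (tacc3). In this order they had ranks 4, 8, 9, 16 and 18 among all 19535 genes. A symbol was at hand for 1417 of these genes, from the study's lists of changed genes, and for 5 of the 20 nearest. What the others of the 20 encode was not known here. The gene neb encodes the muscle protein nebulin, while the products of tpx2, aspm and tacc3 act at the mitotic spindle. The level of tpx2 was 30.3, 19.8, 23.9 and 25.9 CPM in wild-type fish 1 to 4 and 5.29, 7.35, 7.38 and 10.8 CPM in sponge-29 fish 1 to 4. As for shmt1, the groups were far apart and sponge-29 fish 1 was lowest and fish 4 highest. This held for the lowest and highest fish of 2 of the 5 genes, and for 13% of all other genes tested. The full order of the sponge-29 fish was that of shmt1 in 0 of the 5 genes, against 8.33% of all other genes. The log2 fold changes of the 5 genes lay between -1.95 (neb) and -1.51 (tacc3), and thus nearer to 0 than that of shmt1. With 1 fish left out in turn, 4 or 5 of the 5 genes stayed among the nearest.

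**Figure D4:**
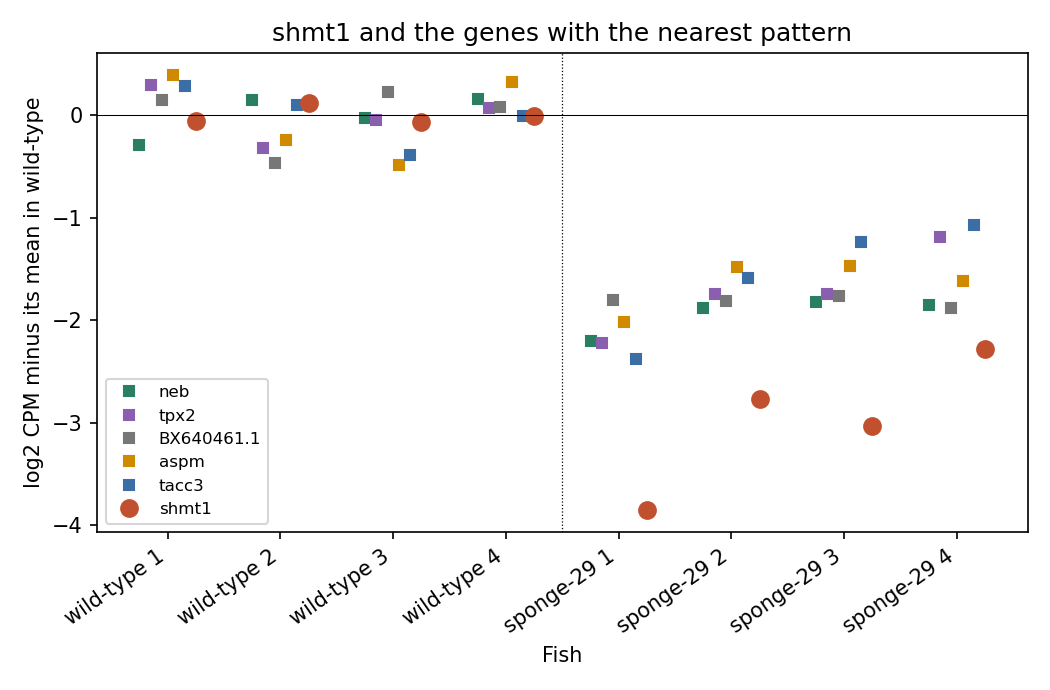
The log2 CPM (no prior count) of shmt1 (circles) and of the 5 genes with a symbol and the nearest pattern (squares) in each fish. Each gene is set to 0 at its mean in wild-type. Sponge-29 fish 1 has the lowest value of shmt1, tpx2, neb, aspm and tacc3 in its group, and fish 4 that of BX640461.1. Over all other genes tested, 25.7% have fish 1 lowest. The value of shmt1 lies below the 5 genes in each sponge-29 fish.

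Markers of dividing cells were lower in the same libraries. Like the pathway genes, markers of any cell type could enter only through the study's lists of changed genes, which largely sets how many were called. Of 6 markers (MKI67, plk1, kif11, tpx2, casc5 and CENPE) 5 fell and casc5 did not pass the threshold, where 5.84% of all genes tested fell, and the median log2 fold change of the 6 was -1.01. Their summed level was between 125 and 180 CPM in wild-type and between 49.2 and 91.1 CPM in sponge-29. Within the sponge-29 group, fish 1 was lowest for all 6 markers, and fish 4 was highest for 5 of them, the exception being CENPE. Of these markers tpx2 was also among the nearest genes above, so its order of fish is not independent of that ranking. All 6 mark the same process and were read in the same 4 fish, so their orders are not independent of each other. The list was chosen with earlier results of these data known. Over all other genes tested, 25.7% had fish 1 lowest, and 13% had fish 1 lowest and fish 4 highest. The full order of the 4 sponge-29 fish was that of shmt1 for 1 of the 6 markers, against 8.33% of all other genes. MKI67, a protein of proliferating cells, had 48.8, 56.7, 35.3 and 44.6 CPM in wild-type fish 1 to 4 and 11.5, 19.1, 20.7 and 28.8 CPM in sponge-29 fish 1 to 4. Among the 10 genes of the methionine and serine lists, 1 had fish 1 lowest and fish 4 highest. In wild-type brain the likeness was partial. There fish 1 was highest for all markers of dividing cells but MKI67, while shmt1 was highest in fish 2 (15.3 CPM). Wild-type fish 3 was lowest for all of these markers but tpx2, and its shmt1 level (13.46 CPM) was little below that of fish 1 (13.51 CPM). The part of dividing cells in the level of shmt1 was not tested.

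Other marker lists, taken from the same lists of changed genes, moved in the same comparison, where 6.15% of all genes tested rose and 5.84% fell, and their part in the level of shmt1 was not tested. Of the 6 neuronal markers 5 rose, and of the 3 glial markers KCNJ10, sox9a and sox10 all 3 rose, with summed levels of the latter between 256 and 406 CPM in wild-type and between 489 and 524 CPM in sponge-29. Of 6 genes of blood plasma proteins, which are made mainly in liver, 4 rose. Their summed level was between 5178 and 8413 CPM in wild-type and between 9671 and 14175 CPM in sponge-29. The gene tfa (transferrin) alone had a mean of 4115 CPM in wild-type and 7721 CPM in sponge-29. Which cells this RNA came from was not tested. Of 5 endothelial identifiers (ESM1, ptprb, eltd1 and slco1c1, with ptprb present under 2 identifiers) 3 fell and 2 did not pass the threshold. Of these 2, an identifier of ptprb had a log2 fold change of -0.56, and ESM1 went the other way with 0.43. The summed levels of the 5 were from 115 to 165 CPM in wild-type and from 84.0 to 107 CPM in sponge-29. The genes listed as microglial markers, whose cell type in this brain was not tested, went in opposite directions. The gene mrc1a rose (log2 fold change 0.79), and ITGAM had a log2 fold change of -1.84 and did not pass the threshold. Their sum was between 22.5 and 103 CPM in wild-type, where the upper limit came from ITGAM in wild-type fish 2 (94.6 CPM against 10.2 to 13.4 CPM in the other fish), and between 26.4 and 37.6 CPM in sponge-29. No marker of these lists was at 0 in any fish.

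Of the 20 protein-coding genes nearest to shmt1 in the order of the RefSeq table, 10 on either side, 2 could be paired with an identifier by symbol, and they moved in opposite directions. Symbols came from the study's lists of changed genes, which largely sets that both passed the threshold, where 12.0% of all genes tested passed. The levels of the other neighbours could not be read. The histone acetyltransferase gene ep300b, 6 genes away on one side, fell from 170 ± 14.03 to 108 ± 11.2 CPM (SD, n = 4), a change of -0.65 ± 0.09 (log2, standard error) with an adjusted p of 0.0110 by edgeR. The beta-actin gene actb2, 5 genes away on the other side, rose from 264 ± 56.8 to 382 ± 39.9 CPM (SD, n = 4), a change of 0.53 ± 0.15 (log2, standard error) with an adjusted p of 0.0490 by edgeR. The settings of the counting on strand and on reads with several matches are not given in the sources used here, so the values of near-identical copies, such as actin genes, are uncertain.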

How the data were processed

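Brain RNA of 4 wild-type and 4 sponge-29 fish was sequenced as single reads (TruSeq RNA kit). The authors mapped reads with TopHat2 2.0.6, counted them with featureCounts 1.4.3-p1 and deposited unnormalized counts of 23546 genes. They also deposited RPKM values, which the authors scaled to gene length and reads. Zero values fell on the same entries of both tables. Groups were taken from the genotype label, and fish were numbered within groups in the order of the records.

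Counts were analysed with R 4.3.3 and edgeR 4.0.16 (filterByExpr with minimum count 10, TMM, quasi-likelihood F-test, Benjamini-Hochberg adjustment over 19536 genes, threshold 0.05). Standard errors come from the log2 fold change and its F statistic. Log2 CPM used a prior count of 2. Poisson intervals are exact at 95%. No pair of libraries within a group agreed within sampling noise (smallest chi-square per degree of freedom 10.1). The main edgeR fit, its likelihood ratio and gene length variants, DESeq2, limma voom and log2(RPKM + 0.1) were first tested on simulated data. In these data 200 genes were changed and no trend with gene length was added. The other settings, the ranking of patterns and the intervals were not simulated.

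Symbols came from the study's list of genes changed in sponge-29 and its list of genes by direction in sponge-29 and with age (the source for shmt1), which together pair 1418 identifiers with one, and 0 identifiers matched RefSeq's table. The study's own fold changes, p-values and FDR values in these lists were not used. Named genes are shmt1, the members of 12 lists (methionine and serine genes with values, other lists by their extremes) and the 5 nearest genes with a symbol. The gene and the lists were chosen with earlier results of these data known, and the list of DNA replication genes after their values were seen. The alternatives used DESeq2 1.42.0 and limma 3.58.1. Figures were drawn with matplotlib 3.10.9.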

Additional observations from a re-analysis of the deposited data

Results flagged for a closer look

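In 160 groups of 4 fish (80 genes in both genotypes) 11 had a fish far from the other fish of its group. The gap to the nearest fish was then a larger share of the group's range than Dixon's 95% critical value, and chance flags about 1 in 20 groups. The 80 genes were shmt1, the list members, the nearest genes and the neighbours, while the DNA replication genes named below were not scanned. No value of shmt1 was flagged. In wild-type fish 2, ITGAM had 94.6 CPM against 10.2 to 13.4 CPM in the others, prpsap2 60.0 against 51.8 to 52.6, GLYCTK 27.2 against 26.3 to 26.4, nsd1a 69.0 against 74.5 to 75.6 and AHSG 1434 against 1657 to 1686. In sponge-29 fish 3, ABCD4 had 25.9 CPM against 31.9 to 32.5 in the others, n6amt2 14.8 against 16.5 to 16.7 and proza 377 against 436 to 442. In sponge-29 fish 1, odc1 had 175 CPM against 72.3 to 88.8 in the others and kif11 6.98 against 13.5 to 14.5. In sponge-29 fish 4, mettl21a had 26.0 CPM against 23.1 to 23.4 in the others.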

How the results depend on the processing

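The log2 fold change of shmt1 kept its sign under all 11 alternatives and the 8 fits without 1 fish (from -3.15 to -2.67), and its size moved by more than the spread between fish only with log2(RPKM + 1), to -1.78, where the pseudocount exceeds the sponge-29 level. Its mean level with other scaling was 14.1 and 14.2 CPM in wild-type and 1.90 and 1.89 CPM in sponge-29. The count of genes called (2341) was 3791 with DESeq2 and 1529 after correction for gene length, and the cause was not tested, and it and lay between 427 and 2125 without 1 fish. The count of pathway members called (37) lay between 35 and 43 under the alternatives and between 13 and 37 without 1 fish. Of the 10 methionine and serine genes, the results for lmbrd1, ABCD4, sptlc2, slc38a2 and slc38a4 passed the threshold in all 11 alternatives, MTR in 10, GLYCTK in 9, bhmt in 5, and mri1 and slc25a38b in 4 each. No value changed its sign. All 5 nearest genes stayed with log2(RPKM + 0.1), and 4 or 5 without 1 fish. No paired analysis was possible because the labels give the fish of both groups no shared replicate numbers. The 20 to 51 reads of shmt1 limit the precision of its level in each sponge-29 fish.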

Other observations

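Genes of DNA replication were looked up after the values of shmt1 and of the mitotic genes had been seen, and 4 had an identifier. The helicase subunit gene mcm4 had 14.96, 12.4, 12.3 and 13.4 CPM in wild-type fish 1 to 4 and 6.60, 8.07, 9.40 and 11.7 CPM in sponge-29 fish 1 to 4. Its groups did not overlap, and fish 1 was lowest and fish 4 highest in sponge-29, as for shmt1. The same held for rpa1, a single-strand DNA binding protein, with 21.9, 20.6, 18.9 and 21.1 CPM in wild-type fish 1 to 4 and 10.3, 14.3, 16.9 and 17.7 CPM in sponge-29 fish 1 to 4. The DNA ligase gene LIG1 had a log2 fold change of -0.48 and POLD4, a subunit of DNA polymerase delta, one of 0.61. Their groups did not overlap either, but both were highest in sponge-29 fish 1, with LIG1 lowest in fish 2 and POLD4 in fish 3. Groups did not overlap for 21.9% of all genes tested, and 13% of all other genes had fish 1 lowest and fish 4 highest. The full order of shmt1 was found for 0 of the 4 genes, against 8.33% of all other genes. None of the 4 genes passed the threshold with edgeR (adjusted p from 0.0514 to 0.101), while all 4 had an unadjusted p below 0.05 (31.2% of all genes tested) and all 4 passed with DESeq2 (19.4% of all). Symbols came from lists of genes picked by their change in these libraries, which largely sets these counts. Their median log2 fold change was -0.48.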
